A study of Mus musculus with 17 samples.

Results

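The C-terminal fragment of p65/RelA, residues 362-549, was set against full-length wild-type p65 (WT) in the murine leukaemia cell line DA1-3b. The members are the 3 arrays whose source name is 362-549 and the 4 arrays whose source name is WT, of 17 arrays in all, and every gene was compared between them. DA1-3b carries the Bcr-Abl fusion kinase, and the cells are labelled as strain C3H eOuJ. All 17 samples came from that line, grown in serum-containing DMEM and transfected with a plasmid for a form of p65/RelA: 362-549 (n = 3), 1-361 (n = 3), the point mutant D361E described as non-cleavable (n = 4), both fragments together (1-361+362-549, n = 3) or WT (n = 4). The series sets out to compare the genes that these forms regulate. The void plasmid named in the treatment protocol was not analysed here, so WT is the reference and each difference is one between 2 transfected populations. The labels give neither the time after transfection, nor whether the cells were selected or cloned, nor whether the arrays of a group stand for separate cultures. The p-values therefore reflect array-to-array spread alone, part of which may be technical.

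RelA is a subunit of NF-kB, a dimeric transcription factor that inhibitor proteins of the IkB family hold in the cytoplasm until kinase signalling destroys them. The N-terminal part of RelA carries the Rel homology domain, which binds DNA, dimerises and is bound by the inhibitors, while the C-terminal part carries the transactivation domains, which recruit the transcription machinery. NF-kB switches on its own inhibitors, such as Nfkbia and Tnfaip3, as well as cytokine, chemokine, adhesion and survival genes. The 362-549 fragment thus holds the activating part without the part that binds DNA. In leukaemia cells NF-kB is best known for supporting survival and inflammatory signalling.

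A level below is the log2 processed signal of a probe minus the 75th percentile of its array, and a difference is the level with 362-549 minus the level with WT, on the log2 scale. The 75th percentile of the signal lay between 636 and 700 on the 362-549 arrays and between 773 and 1023 on the WT arrays. Between 49.4% and 50.8% of probes were well above background with 362-549, and between 48.9% and 51.7% with WT. Across genes, which are not independent replicates, pairs of arrays correlated at 0.980 to 0.987 within 362-549, at 0.973 to 0.995 within WT and at 0.969 to 0.990 between the groups. Of the 10 genes listed as markers of a haematopoietic Bcr-Abl cell, 9 were tested and Kit was not well above background in either group. Their summed linear level was 111 to 121 times the 75th percentile with 362-549 and 115 to 138 times with WT. In such bulk RNA, fewer cells of a type and less RNA per cell cannot be told apart.

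Of 15254 genes tested, 109 were called with 362-549 against WT (0.715%; limma, Benjamini-Hochberg adjusted p under 0.05), 40 higher (0.262%) and 69 lower (0.452%). For 13 of the rises the probe was not well above background on any WT array, and for 15 of the falls on any 362-549 array, so that these have at most a lower bound on their size. Of the other 27 rises, 24 exceeded 2-fold, 18 exceeded 4-fold and 9 exceeded 8-fold, with a median difference of 2.33. These needed only 1 WT array well above background, as with Epb41l3, Ttc25 and Grid2ip (1 of 4 each). Some of these sizes therefore rest partly on background readings. Of the other 54 falls, 45 exceeded 2-fold, 5 exceeded 4-fold and 0 exceeded 8-fold, with a median difference of -1.37. With the rest placed at their bounds, 21 of 40 rises and 8 of 68 falls exceeded 4-fold, and Clec7a had no bound. No array of 1 group overlapped the other for 39 of the 40 rises and for all 69 falls, and over all genes tested that held for 9.73%, 6.86% with 362-549 higher and 2.87% with it lower. At an unadjusted p under 0.05 there were 1349 genes, 964 higher (6.32%) and 385 lower (2.52%). These shares are the background for the unadjusted counts of the lists below. With the slide fitted as a block 65 genes were called, 64 of them among the 109. With normexp background correction, which pulls dim signals together, 28 were called, all among the 109. Of the 49 called genes named below, 9 kept their call under every setting tried: Nfkbia, Tnfaip3, Clec4e, Itih3, Psen2, Epb41l3, Hbb-bt, Hbb-b2 and Hbb-bh1. The losses given gene by gene below are mostly those with the slide block or without an array. Losses under other settings are mostly not repeated there. With normexp 37 of the 49 lost their call, among them Lta, Ltb, Icam1, Acod1, Il13, Gbp2, Prkd3, Fndc4, Stfa1 and Stfa2l1. With the 7 arrays of the 2 groups alone 22 lost it.

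**Figure D1:**
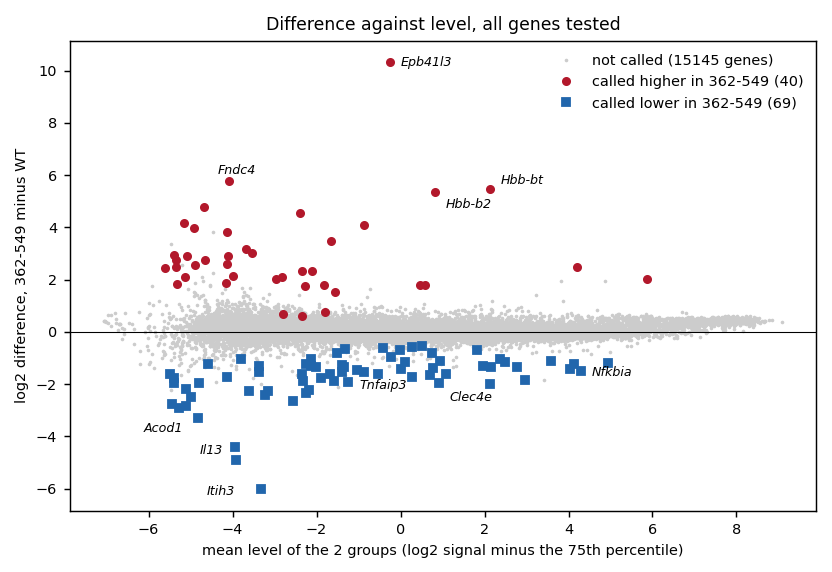
Difference (362-549 minus WT, log2) on the vertical axis against the mean level of the groups (log2 signal minus the 75th percentile) on the horizontal axis, a point per gene. Circles mark the 40 genes called higher with 362-549, squares the 69 called lower, and Epb41l3 stands apart at 10.33.

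Rela itself was read by 1 probe (mm9 chromosome 19, 5648070 to 5648129) at 4.80, 4.86 and 4.82 on the 362-549 arrays and at 4.75, 4.68, 4.84 and 4.85 on the WT arrays. The groups overlapped, and the difference of 0.05 ± 0.10 (SE) was not called (limma adjusted p = 0.961). The array file does not say which part of the transcript the probe lies in, so these levels are no check of the plasmids. The partner subunits were not called either. Nfkb1, the precursor of p50, averaged -0.93 ± 0.23 (SD, n = 3) with 362-549 and -1.31 ± 0.30 (n = 4) with WT (adjusted p = 0.687). Nfkb2, the precursor of p52, averaged 0.51 ± 0.35 with 362-549 and 0.64 ± 0.11 with WT (0.93). Relb, which pairs with p52, was at -0.59, -0.84 and 0.09 with 362-549 and at 0.41, 0.04, 0.22 and 0.24 with WT, so that replicate 3 of 362-549 lay among the WT arrays (-0.67 ± 0.21, adjusted p = 0.303). Its other kept probes, well above background on every array of both groups, went opposite ways, at -0.78 ± 0.24 and 0.34 ± 0.33. Of 25 subunits and activating kinases tested, 1 was called, Prkd3, encoding protein kinase D3. It was at -6.90, -6.58 and -6.93 with 362-549, not well above background, and at -4.22, -3.99, -4.56 and -3.46 with WT, at least 1.5-fold lower with 362-549 (adjusted p = 8.45e-05). The call rests on 1 probe, as the other Prkd3 probes were not well above background in either group. The median difference of the 25 was 0.02, against 0.05 over all genes tested.

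The inhibitors and feedback regulators of NF-kB held 3 falls and 0 rises among 17 tested, at a background of 0.452% called lower. At an unadjusted p under 0.05 the list counted 4 falls and 0 rises, the fourth being Nfkbie. Nfkbia encodes IkBalpha, the inhibitor that binds RelA and is resynthesised after activation. It was at 3.45, 3.13 and 4.07 with 362-549 and at 5.09, 4.84, 5.16 and 5.04 with WT. Every 362-549 array lay below every WT array, by -1.48 ± 0.22 (SE; limma adjusted p = 0.00193), or 2.80-fold. Within the 3 slides that held both groups the difference was -1.59, -0.77 and -2.03.

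Tnfaip3 encodes A20, a ubiquitin-editing enzyme that shuts off NF-kB signalling. Its levels were -2.39, -2.48 and -1.74 with 362-549 and -0.27, -0.42, -0.34 and -0.09 with WT, again without overlap. It fell by 1.92 (SE 0.24, adjusted p = 0.000508), and the difference within slides was -2.30, -1.31 and -2.15. Over the 35 ways of assigning 3 of the 7 arrays, the two-sided exact permutation p was taken as the doubled one-sided p. It was 0.0571 for Nfkbia and for Tnfaip3 and 0.457 for Rela. With that doubling, 0.0571 is the smallest value possible. Traf1, an adaptor of tumour necrosis factor receptors, was at -0.70, -0.65 and -0.07 with 362-549 and at 0.74, 0.99, 0.65 and 0.30 with WT. The groups did not overlap, and the difference was -1.14 ± 0.23 (adjusted p = 0.0267). This call was lost with the slide block (0.1003) and without 362-549 replicate 1 or 2 or WT replicate 1, 2 or 3 (adjusted p from 0.0568 to 0.160). No further member was called. Nfkbie, encoding IkBepsilon, was at 0.60, 0.57 and 1.21 with 362-549 and at 1.5, 1.5, 1.37 and 1.40 with WT, with no overlap and an adjusted p of 0.12, and it was called lower without scaling between arrays (0.0120) and without 362-549 replicate 3 (0.0136). Tnip1, an A20-binding protein, differed by -0.11 ± 0.15 (0.918). Replicate 3 of 362-549 was the highest array of its group for Nfkbia, Tnfaip3, Traf1, Nfkbie and Relb, and for the cytokine genes Ltb and Il6 below.

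The promoters of the called genes of the NF-kB lists were searched because NF-kB is known to act there. The 250 bases before the start were read from RefSeq (GRCm38.p6) for all 9 of these genes, 5' to 3' in gene orientation, and capitals mark matches on either strand to the 10-base kB consensus. Such a match was found for 4 of the 9, Nfkbia, Tnfaip3, Ltb and Il6, and for none of Traf1, Lta, Icam1, Acod1 and Prkd3. Among all 27025 genes with a promoter entry, 8.23% held a match at 1 or more starts, and among the 9708 tested genes with an entry 10.4% did. The 9 genes come from lists of NF-kB targets, of its inhibitors and feedback regulators, and of its subunits and activating kinases. Their share is therefore not independent of how the lists were made.
Nfkbia promoter, chr12:55492648-55492897, minus strand: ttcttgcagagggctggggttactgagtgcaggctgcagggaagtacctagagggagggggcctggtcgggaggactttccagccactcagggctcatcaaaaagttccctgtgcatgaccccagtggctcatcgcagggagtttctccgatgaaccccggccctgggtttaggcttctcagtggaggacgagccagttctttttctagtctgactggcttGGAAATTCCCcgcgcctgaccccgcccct
Tnfaip3 promoter, chr10:19015411-19015660, minus strand: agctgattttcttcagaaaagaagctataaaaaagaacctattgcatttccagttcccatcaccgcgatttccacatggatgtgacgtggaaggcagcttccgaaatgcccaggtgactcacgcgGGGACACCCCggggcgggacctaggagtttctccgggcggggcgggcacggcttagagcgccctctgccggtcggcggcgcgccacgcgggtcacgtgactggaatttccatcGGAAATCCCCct
Ltb promoter, chr17:35194257-35194506, plus strand: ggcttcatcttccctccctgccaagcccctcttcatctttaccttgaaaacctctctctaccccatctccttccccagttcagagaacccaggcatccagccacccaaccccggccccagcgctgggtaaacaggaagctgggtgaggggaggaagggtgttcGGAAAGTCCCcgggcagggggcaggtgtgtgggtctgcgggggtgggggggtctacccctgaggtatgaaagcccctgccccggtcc
Il6 promoter, chr5:30012864-30013113, plus strand: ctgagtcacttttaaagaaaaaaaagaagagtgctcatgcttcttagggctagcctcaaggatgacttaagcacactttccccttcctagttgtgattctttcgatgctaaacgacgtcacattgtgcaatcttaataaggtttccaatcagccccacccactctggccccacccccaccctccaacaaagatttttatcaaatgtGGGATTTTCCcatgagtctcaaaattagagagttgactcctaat
The match nearest the start began 29 bases before it in Nfkbia, 12 in Tnfaip3, 87 in Ltb and 44 in Il6. A match is a run of letters and says nothing of whether a factor was bound there in these cells.

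Among NF-kB target cytokines and growth factors, 3 of 10 tested fell and 0 rose, and at an unadjusted p under 0.05 the counts were 4 and 0. Lta and Ltb encode lymphotoxin alpha and beta, which form the membrane ligand of the lymphotoxin beta receptor. Lta was not well above background with 362-549 (-4.42, -5.24 and -4.53), against -1.84, -1.73, -3.24 and -3.10 with WT, and was at least 3.86-fold lower (adjusted p = 0.00455). Ltb was at 3.32, 3.45 and 3.83 with 362-549 and at 4.82, 4.92, 4.08 and 5.17 with WT, a difference of -1.21 ± 0.23 (0.0156). Its groups were separated by a narrow gap, between 362-549 replicate 3 and WT replicate 3. Il6, the inflammatory cytokine interleukin 6, was at -0.22, 0.03 and 0.98 with 362-549 and at 1.99, 2.05, 1.86 and 1.63 with WT, a difference of -1.62 ± 0.30 (0.0137). The call of Ltb was lost with the slide block (0.0604) and without 362-549 replicate 1 or 2 or WT replicate 1, 2 or 4 (0.0545 to 0.114). That of Il6 was lost with the slide block (0.0656) and without 362-549 replicate 1 or 2 or WT replicate 2 (0.0576 to 0.114). Tnf, whose probe lies between those of Ltb and Lta on chromosome 17 in mm9, was at -1.87, -1.57 and -2.19 with 362-549 and at -1.14, -0.86, -1.39 and -1.04 with WT. Those arrays did not overlap, but the difference of -0.77 ± 0.26 was not called (0.378).

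No chemokine of 10 tested was called (limma), and 2 were lower and 0 higher at an unadjusted p under 0.05, Ccl3 and Cxcl10. Ccl3, a macrophage inflammatory protein, was not well above background on any 362-549 array and was so on 3 of 4 WT arrays (at least 1.39-fold lower, adjusted p = 0.161). It was called lower with quantile normalization (0.0375) and without scaling between arrays (0.0196). Its neighbour Ccl4 averaged 0.18 ± 0.57 with 362-549 and -0.26 ± 0.65 with WT, and the groups overlapped. Of 14 receptor, adhesion and surface genes 1 was called. Icam1, the endothelial and leukocyte adhesion molecule, was at -3.38, -2.72 and -2.50 with 362-549 and at -1.89, -1.51, -1.66 and -1.45 with WT. It fell by 1.24 (SE 0.26, adjusted p = 0.0359), a call lost with the slide block (0.179) and without 362-549 replicate 1 or 2 or any WT array (0.0526 to 0.214). Cd44 and the death receptor Fas had overlapping groups, at differences of -0.11 ± 0.20 and -0.66 ± 0.44.

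Of 21 survival and effector targets 1 was called. Acod1, the enzyme that makes itaconate in activated macrophages, was at -6.20, -6.51 and -6.73 with 362-549, not well above background, and at -3.19, -2.94, -3.62 and -3.0 with WT. That makes it at least 2.75-fold lower with 362-549 (adjusted p = 3.81e-07). The survival targets were not called: the apoptosis inhibitor Birc3 differed by -0.21 ± 0.17 (0.857), the mitochondrial superoxide dismutase Sod2 by -0.12 ± 0.20 (0.946), Irf1 by -0.05 ± 0.18 (0.978) and Myc by 0.21 ± 0.23 (0.897). All 4 had overlapping groups. Over the 4 target lists together, 5 of 55 genes tested fell (9.09%, against 0.452% of all genes) and 0 rose, 34 lay below 0 and the median difference was -0.17. At an unadjusted p under 0.05, 14 were lower and 1, Bcl2, was higher. Without the filter on dim probes, which adds genes at background, the median of the 4 lists was 0.06, while that of all genes was 0.24.

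**Figure D2:**
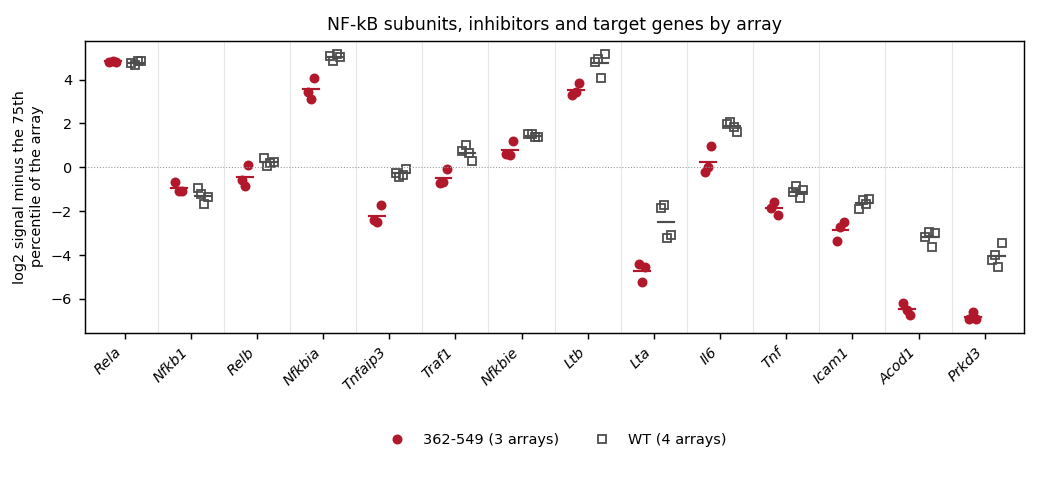
Level (log2 signal minus the 75th percentile of the array) of NF-kB subunits, inhibitors and target genes, a filled circle per 362-549 array, an open square per WT array and a line at each mean. Rela and Nfkb1 overlap between groups, while Nfkbia and Tnfaip3 lie lower on every 362-549 array.

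Cytokine and interferon genes outside these lists also held falls. Il13, a type 2 cytokine, was at -6.90, -5.48 and -6.04 with 362-549, not well above background, and at -2.64, -1.11, -1.97 and -1.22 with WT, at least 7.53-fold lower (adjusted p = 0.000146). Il4, which lies near it on chromosome 11, was not called: it was at -3.83, -3.82 and -2.83 with 362-549 and at -2.30, -1.52, -1.34 and -3.63 with WT, where WT replicate 4 lay among the 362-549 arrays (-1.30 ± 0.54, 0.485). Cxcr2, a receptor for neutrophil-attracting chemokines, was at -1.83, -3.10 and -2.53 with 362-549 and at -0.48, -0.69, -1.18 and -1.08 with WT. It fell by 1.63 (SE 0.28, 0.00926), and the call was lost with the slide block (0.0817) and without 362-549 replicate 2 (0.0619).

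Of 16 interferon-inducible GTPases, which act on membranes around intracellular microbes, 2 fell and 0 rose. At an unadjusted p under 0.05 there were 3 lower and 1 higher, Gvin1. Gbp2 was at -6.14, -5.80 and -6.78 with 362-549, not well above background, and at -3.88, -3.64, -4.37 and -3.16 with WT, at least 1.84-fold lower (adjusted p = 0.000476). Gbp3, its neighbour on chromosome 3, was at -4.13, -4.18 and -5.0 with 362-549 and at -1.76, -1.82, -2.84 and -1.58 with WT (-2.43 ± 0.44, 0.0116), with 2 of 3 arrays of 362-549 well above background. Its call was lost with the slide block (0.0601) and without 362-549 replicate 3 (0.0966). Igtp (-0.18 ± 0.15) and Irgm1 (0.02 ± 0.15), of the same superfamily, overlapped between groups, and the list median was 0.03. Of 33 antiviral interferon-stimulated genes none was called (limma), with 5 lower and 0 higher at an unadjusted p under 0.05. Their differences ran between -1.01 for Oas2 and 0.28 for Rtp4, 26 lay below 0 and the median was -0.24.

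Myeloid recognition receptors held falls as well. Of 22 paired and activating receptors tested 4 fell and 0 rose, 18 lay below 0 and the median difference was -0.50. At an unadjusted p under 0.05 there were 9 lower and 1 higher, Trem1. Clec4e, which encodes Mincle, a C-type lectin for mycobacterial glycolipid and products of dead cells, was at -0.28, 0.02 and 0.05 with 362-549 and at 1.80, 2.08, 1.48 and 2.21 with WT. It fell by 1.96 (SE 0.21, adjusted p = 0.000146), with within-slide differences of -2.49, -2.03 and -1.45. Clec7a, encoding the beta-glucan receptor Dectin-1, averaged -6.32 ± 0.28 with 362-549 and -4.69 ± 0.08 with WT. It was well above background on no 362-549 array and on 2 of 4 WT arrays, so no fold is given for it. It was called lower (adjusted p = 0.00742), and the call was lost without 362-549 replicate 2 (0.0516).

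Pilra and Pilrb1 are an inhibitory and an activating receptor of the same pair, side by side on chromosome 5. Pilra was at -4.38, -4.57 and -2.73 with 362-549, where replicate 3 alone was well above background, and at -2.07, -1.39, -0.89 and -0.60 with WT (-2.65 ± 0.40, adjusted p = 0.00285). The other kept Pilra probes were not well above background on any 362-549 array, and they were at least 3.18-fold and 6.86-fold lower. A further Pilra probe did not pass the filter. It was well above background on 1 362-549 array and 3 WT arrays and differed by -0.05. Pilrb1 was not well above background with 362-549 (-6.90, -6.61 and -6.66), against -4.71, -4.39, -3.76 and -2.44 with WT, at least 1.77-fold lower (0.00791; 0.0696 with the slide block). The signalling adaptor Tyrobp, which activating receptors of this kind use, differed by -0.72 ± 0.26 and was not called (0.409).

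The deepest fall was that of Itih3, a heavy chain of the inter-alpha-trypsin inhibitors, which are secreted proteins that bind hyaluronan. Itih3 was at -5.83, -6.62 and -6.54 with 362-549, not well above background, and at -0.37, -0.47, -0.34 and -0.03 with WT, at least 20.2-fold lower (adjusted p = 8.54e-09). Of 15 acute-phase and inflammatory effectors tested it was the single call. At an unadjusted p under 0.05, 6 were lower and 0 higher, among them the neighbouring Itih1 and Itih4. The median of that list, 0.09, turned below 0 without scaling (-0.32) and with quantile normalization (-0.18).

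Other large falls were spread over unrelated functions. Psen2, a catalytic subunit of gamma-secretase, was at 2.28, 2.23 and 1.59 with 362-549 and at 4.01, 3.91, 3.40 and 4.23 with WT (-1.85 ± 0.24, adjusted p = 0.000593). Mylk3, a myosin light chain kinase of heart muscle, fell by 1.86 (SE 0.26, 0.00122), and its other kept probes by 1.64 and 1.46. Tmem273, a membrane protein, fell by 2.27 (SE 0.24, 0.000146). Map3k19, a protein kinase, was well above background on no 362-549 array and on every WT array, at least 1.92-fold lower (1.02e-06), and by its other kept probe, equally dim with 362-549, at least 2.17-fold lower. C1s2, a complement C1s protease gene, was at least 1.56-fold lower (0.000593), and its other probe was not well above background in either group. These genes kept their call without each array in turn, and of them Psen2 alone also kept it with normexp. Hpn, the serine protease hepsin, fell by 2.23 (SE 0.40, 0.0107), a call lost with the slide block (0.0618) and without 362-549 replicate 1 or 3 (0.0578 and 0.0856). Ly6g6d, in the same stretch of chromosome 17 as Ltb, fell by 1.87 (SE 0.36, 0.0195), a call lost with the slide block (0.165) and without 362-549 replicate 3 or WT replicate 1 or 2 (0.0779 to 0.109). Tesc, a calcium-binding protein (at least 1.17-fold lower, 0.026), and Fhdc1, a formin (at least 1.68-fold, 0.0456), lost their calls without 362-549 replicate 2 or 3 or without WT replicate 1, 2 or 4, and Fhdc1 also without WT replicate 3 (adjusted p from 0.0617 to 0.294 for the pair). A second Fhdc1 probe was not well above background in either group.

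Epb41l3 showed the largest change of all genes tested. It encodes protein 4.1B, which links membrane proteins to the actin skeleton. Its level was 4.95, 4.79 and 5.02 with 362-549, among the brighter genes, against -3.0, -7.20, -4.81 and -6.63 with WT, where 1 array of 4 was well above background. The difference was 10.33 ± 1.00 (SE; adjusted p = 4.77e-05), and within slides it was 11.58, 12.21 and 9.60. The WT levels, near background, were also the more scattered, with an SD of 0.12 with 362-549 and 1.90 with WT.

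Globin genes rose together. Of 8 tested 6 rose and 0 fell (background 0.262% called higher), at a median difference of 3.24, and Hba-a1 was higher without overlap but uncalled (1.93 ± 0.44, adjusted p = 0.0701). The adult beta chains carried the largest rises. Hbb-bt was at 4.47, 4.97 and 5.16 with 362-549 and at -0.92, -0.41, -0.23 and -0.82 with WT, and Hbb-b2 was at 3.24, 3.58 and 3.71 against -2.09, -1.58, -1.66 and -2.10. Their differences were 5.47 ± 0.32 and 5.37 ± 0.32 (1.78e-07 and 2.18e-07), or 44.2-fold and 41.3-fold, and within slides they lay between 5.20 and 5.57 and between 5.24 and 5.34. Hbb-bs was at -0.54, 0.06 and 0.11 with 362-549 and at -4.69, -4.91, -2.71 and -6.43 with WT (4.56 ± 0.59, 0.000688).

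The embryonic beta-like chains moved as well. Hbb-bh1 was at -0.39, 0.02 and 0.59 with 362-549 and at -3.53, -3.36, -2.87 and -3.78 with WT (3.46 ± 0.37, adjusted p = 0.000124). Hbb-y was at -1.98, -1.61 and -2.46 with 362-549 and at -4.97, -5.44, -4.0 and -5.74 with WT (3.02 ± 0.38, 0.000593). Its other kept probe was not well above background on any WT array and was at least 5.04-fold higher. The alpha chain gene Hba-a2 was bright in both groups, at 6.49, 6.80 and 7.31 with 362-549 and at 4.21, 4.83, 5.77 and 4.63 with WT (2.01 ± 0.36, 0.0116). Its call was lost without 362-549 replicate 2 (0.0532) or 3 (0.0943), each of which left 2 arrays in the group. Globin genes of near-identical sequence can share signal on an array, so the rises of Hbb-bt, Hbb-b2 and Hbb-bs, and of the alpha pair, may not be separate measurements.

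Other genes of the red cell programme were not called. Of 22 erythroid regulators and membrane genes 1 rose, Epb41l3 itself, at a list median of 0.12, and at an unadjusted p under 0.05 there were 3 higher (Ank1, Epb41l3 and Tal1) and 1 lower (Lmo2). Epb41l3 is better known from brain and other tissues than from the red cell, so its place on that list is loose. Gata1, the master transcription factor of the lineage, averaged 5.28 ± 0.31 with 362-549 and 5.25 ± 0.17 with WT (0.03 ± 0.17, adjusted p = 0.987). Klf1, the activator of adult beta globin, averaged 1.38 ± 0.17 with 362-549 and 1.14 ± 0.34 with WT (0.849). Of 12 haem genes none was called, and 0 passed an unadjusted p of 0.05. The summed level of the erythroid markers was 37.3 to 54.2 with 362-549 and 39.0 to 48.9 with WT, and Slc4a1, Alas2, Ahsp and Rhag, markers of maturing red cells, were not well above background in either group.

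**Figure D3:**
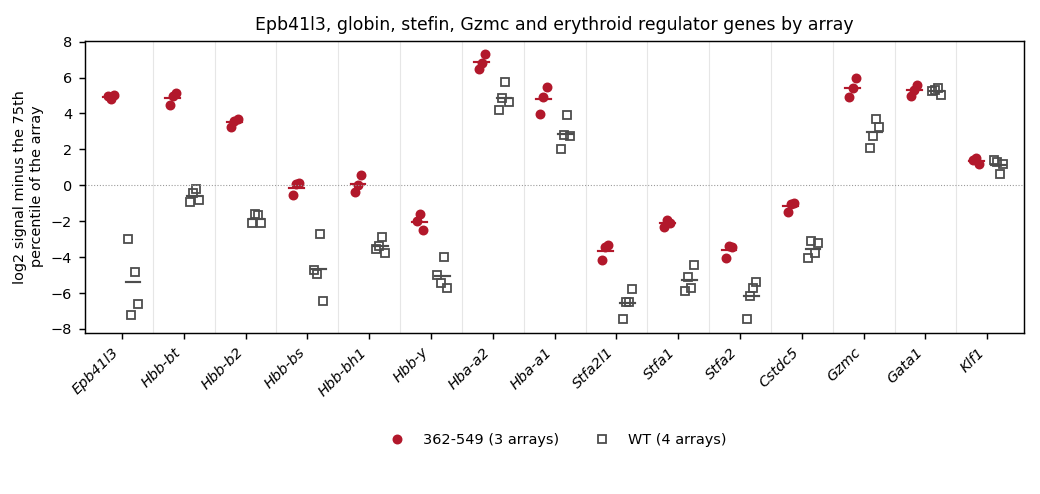
Level (log2 signal minus the 75th percentile of the array) of Epb41l3, globin, stefin and granzyme C genes and of the regulators Gata1 and Klf1, a filled circle per 362-549 array, an open square per WT array and a line at each mean. Every globin shown lies higher on each 362-549 array, while Gata1 and Klf1 overlap.

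Stefin genes on chromosome 16 were among the rises. Stefins inhibit cysteine proteases such as cathepsins and are known from granulocytes. Within mm9 positions 36136075 to 36404089, 9 genes were tested and 7 were called higher, against 0.262% of all genes tested: Stfa1, Stfa2, Stfa2l1, Cstdc4, Cstdc5, Csta2 and an unnamed Ensembl transcript. Csta3 and an unnamed probe in the stretch were not called, at differences between -0.05 and 0.75. The stretch was chosen for its calls, so the count is a description. Stfa1 was at -2.31, -1.92 and -2.08 with 362-549 and at -5.87, -5.08, -5.72 and -4.45 with WT (3.17 ± 0.35, adjusted p = 0.000146). Stfa2l1 was not well above background with WT and was at least 2.65-fold higher with 362-549 (0.000146). Cstdc5 was at -1.49, -1.05 and -0.97 with 362-549 and at -4.02, -3.07, -3.77 and -3.20 with WT (2.35 ± 0.46, 0.0239). The call of Stfa2 (at least 2.71-fold higher, 0.00833) was lost with the slide block (0.103) and without 362-549 replicate 2 or 3 (0.05003 and 0.0566). That of Cstdc5 was lost with the slide block (0.181), without any 362-549 array and without WT replicate 1 or 3 (0.0639 to 0.134). Genes of this cluster are close copies of each other, so their probes can share signal.

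Gzmc, granzyme C of the killer cell granule, was at 4.90, 5.43 and 5.97 with 362-549 and at 2.08, 2.77, 3.71 and 3.24 with WT (2.48 ± 0.36, adjusted p = 0.00193; 0.0604 with the slide block). Gzmb was at 4.93, 6.13 and 6.48 against 2.69, 3.99, 4.74 and 4.13, without overlap and not called (1.96 ± 0.46, 0.0874). The summed level of 8 natural killer cell markers was 30.8 to 89.7 with 362-549 and 6.83 to 27.2 with WT, while Gzma, Klrb1c, Klrd1, Klrk1 and Ncr1 were not well above background in either group. On the linear scale nearly all of that sum came from Gzmb, so it repeats the uncalled Gzmb difference. Cd3g, a chain of the T cell receptor complex, was at -2.96, -2.89 and -2.91 with 362-549 and at -6.12, -4.49, -4.17 and -5.40 with WT (2.12 ± 0.39, 0.0135). Its call was lost with the slide block (0.0601) and without any 362-549 array or WT replicate 4 (0.0526 to 0.0690), and also without scaling between arrays. It was the single call among 6 T cell markers tested, all of which lay above 0. Cd3d was higher without overlap, by 0.30 ± 0.11, and passed an unadjusted p of 0.05 but not the adjusted one (0.409). Cd3e, Cd4, Cd5 and Lck overlapped between groups and differed by 0.12 to 0.35. Cd2, Cd247, Cd8a and Zap70 were not well above background, and the summed level of the list was 5.56 to 6.82 with 362-549 and 4.48 to 6.36 with WT. Of 8 mast cell markers tested 1 was called, and it was lower. There were 3 lower (Cma1, Cpa3 and Mcpt8) and 0 higher at an unadjusted p under 0.05, and the median difference was -0.33. Cma1, mast cell chymase, was at 0.98, 1.55 and 1.89 with 362-549 and at 2.37, 3.04, 3.23 and 2.64 with WT (-1.35 ± 0.26, 0.0239), a call lost with the slide block (0.0919) and without 362-549 replicate 1 or 2 or WT replicate 2 or 3 (0.0658 to 0.158). The summed mast cell list was 49.3 to 49.9 with 362-549 and 46.4 to 62.2 with WT. Of the 12 marker lists, the summed levels of natural killer, dendritic and megakaryocyte markers did not overlap between the groups. The natural killer sum was mostly Gzmb and the dendritic sum mostly Siglech, neither of which was called. The dendritic cell sum was 44.3 to 62.1 with 362-549 and 34.6 to 39.6 with WT, with Siglech at 5.69 ± 0.24 with 362-549 and 5.21 ± 0.08 with WT (adjusted p = 0.635) and with Batf3 and Xcr1 not well above background. Of 3 dendritic markers tested none was called, 2 lay above 0 and 1 lay below, at -1.20. The megakaryocyte sum was 42.6 to 48.7 with 362-549 and 49.7 to 64.7 with WT. None of its 8 tested genes was called (limma), and at an unadjusted p under 0.05 there were 2 lower, Pf4 and Ppbp, and 1 higher. The part of any other cells in these results was not tested.

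The remaining large rises, apart from Ryk, were of genes not well above background on some or all WT arrays. Fndc4, a secreted fibronectin-domain protein, was at -1.40, -1.38 and -0.86 with 362-549 and at -7.41, -7.40, -6.20 and -6.91 with WT, not well above background there, at least 14.4-fold higher (adjusted p = 6.3e-06). A second Fndc4 probe was not well above background in either group. Olfr165, an olfactory receptor gene, was at least 4.44-fold higher (1.41e-05), the scavenger receptor gene Cd163l1 at least 3.47-fold (0.00469), the neuronal gene Sez6 at least 2.14-fold (0.00285) and the tyrosine kinase gene Fer at least 1.93-fold (0.00294). A second Sez6 probe was not well above background in either group. Ryk, a Wnt receptor, was well above background on every array, at -1.5, -1.19 and -0.10 with 362-549 and -3.74, -3.14, -2.60 and -3.59 with WT (2.33 ± 0.41, 0.0107; 0.0808 without 362-549 replicate 3). The calls of Ttc25, a gene of cilia (3.82 ± 0.76, 0.026), and Grid2ip, a synaptic scaffold (2.61 ± 0.57, 0.0497), were lost with the slide block (0.216 and 0.148). Ttc25 also lost it without any 362-549 array or WT replicate 1, 2 or 4, and Grid2ip without 362-549 replicate 2 or 3 or WT replicate 1, 2 or 4 (0.0846 to 0.294 for the pair).

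Of the 27 pathway lists, 15 held no called gene (limma). They include STAT5 and Bcr-Abl output genes (27 tested, median difference 0.08), BCL2 family, caspase and IAP genes (27, -0.06), p53 targets (19, 0.18), integrated stress response genes (29, -0.11), unfolded protein response genes (24, -0.02), glycolysis and hypoxia genes (28, 0.18), cholesterol and fatty acid genes (29, 0.05), cell cycle genes (39, -0.03) and immediate early genes (17, 0.21). In these 15 lists together 341 genes were tested, of which 9 were higher and 16 lower at an unadjusted p under 0.05. Over all genes tested the shares were 6.32% higher and 2.52% lower. Those lower included the interferon-stimulated genes Oas2, Mx1 and Irf7, and those higher included the cytokine-signalling inhibitors Socs1 and Socs3.

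**Figure D4:**
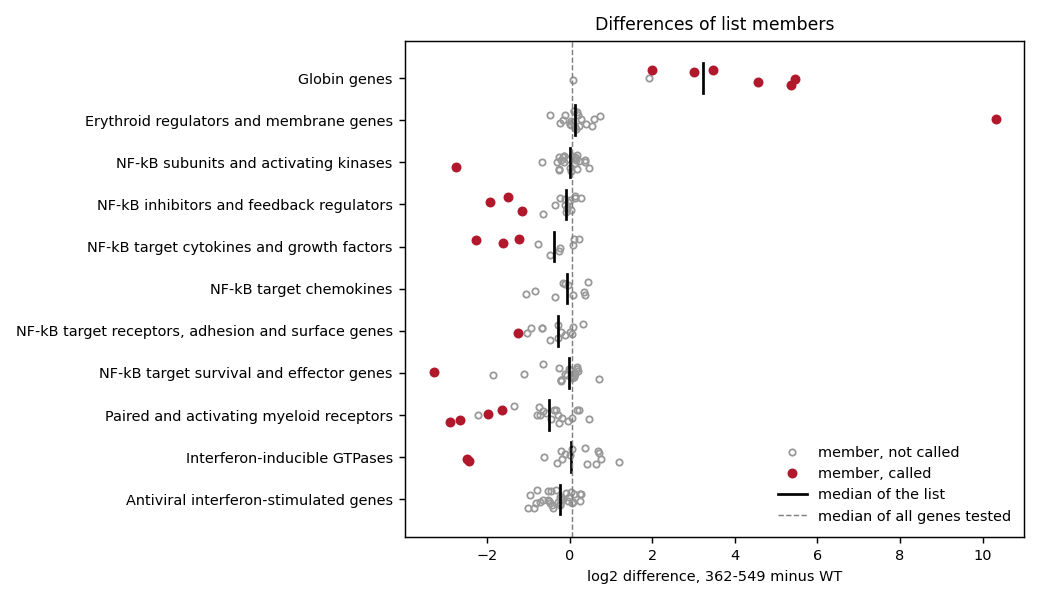
Difference (362-549 minus WT, log2, horizontal axis) of each tested member of 11 gene lists, with called members filled and the list median as a bar. The dashed line is the median of all genes tested, 0.05; the globin median lies at 3.24 and that of the paired and activating myeloid receptors at -0.50.

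Which of the 109 differences set 362-549 apart from the other transfected forms was tested in the same model, by contrasts to which the WT arrays add only their share of the estimated spread. Against D361E, the other full-length form, 196 of all genes were called (1.28%), and 71 of the 109 were among them on the same side, 23 higher and 48 lower. Against 1-361, 96 were called (0.629%), with 38 of the 109 among them, 12 higher and 25 lower on the same side. Against 1-361+362-549, 2223 were called (14.6%), with 88 of the 109 among them, 38 higher and 40 lower on the same side. The rest of the 88 were called on the opposite side. Among them Cma1, Tnni1, Gpr34 and Tmem273 were lower than with WT but higher than with 1-361+362-549. The 109 genes were chosen with the 362-549 arrays, which these contrasts share, so the counts describe how the levels are ordered and are no independent support. Against WT itself the called shares were 0.715% for 1-361, 0.485% for D361E and 5.13% for 1-361+362-549, comparisons that share the WT arrays. Against all 4 other groups at once 28 genes were called, among them Epb41l3, Fndc4, Olfr165, Sez6, Hbb-bt, Hbb-b2, Fam20a and Tekt1 on the higher side and Acod1, Clec4e, Clec7a, C1s1, C1s2, Mylk3, Gpr132, Slc2a6, Fdx1, Gmfg, Wdr92 and Zdhhc15 on the lower side.

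For Nfkbia the group means were 3.55 ± 0.48 with 362-549, 4.02 ± 0.30 with 1-361, 4.91 ± 0.22 with D361E, 4.08 ± 0.28 with 1-361+362-549 and 5.03 ± 0.14 with WT (SD). The difference of 362-549 from D361E was called (adjusted p = 0.00322) and those from 1-361 (0.933) and 1-361+362-549 (0.134) were not. Tnfaip3 had the same order of full-length forms over fragments, at -2.20 ± 0.41 with 362-549, -2.06 ± 0.11 with 1-361, -0.83 ± 0.34 with D361E, -1.62 ± 0.49 with 1-361+362-549 and -0.28 ± 0.14 with WT. For Ltb and Lta, 362-549 was the lowest group and was called below D361E (0.00574 and 0.0137) and 1-361+362-549 (0.0141 and 0.0176), but not below 1-361 (0.907 and 1.00).

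Clec4e averaged -0.07 ± 0.18 with 362-549 and 1.55 ± 0.32, 2.37 ± 0.27, 2.40 ± 0.28 and 1.89 ± 0.33 with 1-361, D361E, 1-361+362-549 and WT (adjusted p = 0.00191 for 362-549 against 1-361). No other form was called against WT. Itih3 was different: it was at -6.33 ± 0.44 with 362-549, -4.13 ± 0.29 with 1-361, -2.93 ± 0.27 with D361E, -6.10 ± 0.66 with 1-361+362-549 and -0.31 ± 0.19 with WT, and each of the other 4 forms was called below WT. Map3k19 was well above background on the 4 WT arrays and on none of the other 13.

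On the rising side, Epb41l3 averaged 4.92 ± 0.12 with 362-549 and lay between -7.06 and -4.94 on average in the other groups, 1-361+362-549 included, where the same fragment was transfected alongside 1-361. Hbb-bt stepped down over the groups, at 4.87 ± 0.36 with 362-549, 2.56 ± 0.24 with 1-361, 1.78 ± 0.73 with D361E, 0.73 ± 0.20 with 1-361+362-549 and -0.60 ± 0.33 with WT, with 362-549 called above each of the others (adjusted p = 0.00287 against 1-361). Hbb-bh1 averaged 0.07 ± 0.49 with 362-549 and 0.23 ± 0.36 with 1-361, a difference not called. Hba-a2 averaged 6.87 ± 0.41 with 362-549, 6.70 ± 0.04 with 1-361, 6.70 ± 0.63 with D361E, 5.62 ± 0.37 with 1-361+362-549 and 4.86 ± 0.66 with WT. Its levels with 1-361 and D361E were also called above WT (limma adjusted p = 0.0227 and 0.0213), and 362-549 was not called against either. The stefin Stfa2l1 was at -3.65 ± 0.45 with 362-549, -2.84 ± 0.28 with 1-361 and -3.26 ± 0.22 with D361E, and was not well above background with 1-361+362-549 or WT. Gzmc averaged 5.43 ± 0.53 with 362-549, 5.38 ± 0.56 with 1-361, 4.54 ± 0.32 with D361E, -3.60 ± 0.30 with 1-361+362-549 and 2.95 ± 0.70 with WT.

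**Figure D5:**
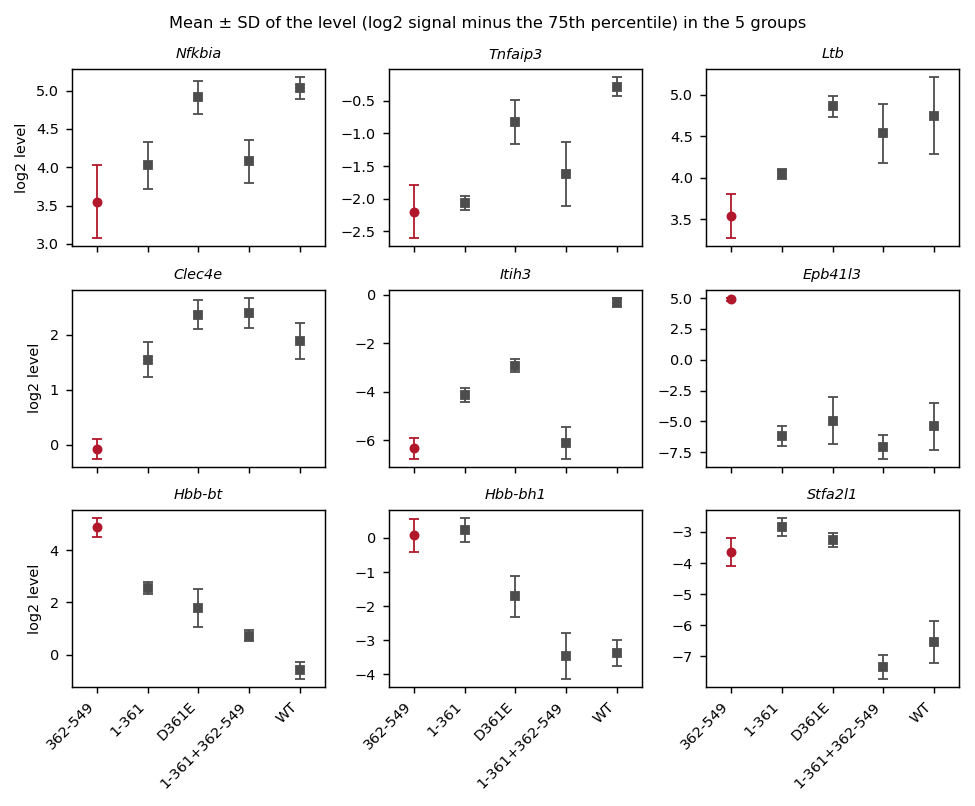
Mean ± SD of the level (log2 signal minus the 75th percentile) of 9 genes in the 5 groups, n = 3 for 362-549, 1-361 and 1-361+362-549 and n = 4 for D361E and WT. Epb41l3 is high with 362-549 alone, Itih3 is highest with WT, and Stfa2l1 is low with 1-361+362-549 and WT.

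Some called genes lay side by side. Of the called genes with a probe position in mm9, 35 (32.7%) had another called gene of the same direction within 500000 bases, against 4.55% of all 15124 tested genes with a position. The 35 include gene families that can share signal and unnamed probes next to Cma1, Cd200r2 and Mylk3, so they are not 35 separate genes. On chromosome 7 they were Hbb-bt, Hbb-bs, Hbb-bh1 and Hbb-y, between 110961105 and 111000327. On chromosome 17 they were Ly6g6d, Aif1, Ltb and Lta, between 35208353 and 35340334, in the same stretch as Tnf. Of 15 genes tested there these 4 were called, all lower. The others, Tnf among them, were not called, at differences between -0.77 and 0.18. The stretch was chosen for its calls, so the count is a description. Aif1, an actin-binding protein of macrophages, fell by 0.94 (SE 0.20, adjusted p = 0.0426). Pairs of neighbours that fell were Gbp2 and Gbp3 on chromosome 3, Pilra and Pilrb1 on chromosome 5, C1s1 and C1s2 on chromosome 6, Hpn and Ffar2 on chromosome 7, Il27ra and Podnl1 on chromosome 8, and Ephx2 and Chrna2 on chromosome 14. Neighbours of 1 family can share probe signal, which applies to the globin and stefin clusters and to the Gbp, Pilr and C1s pairs. Ltb and Lta are of 1 family, while Aif1 and Ly6g6d are not of it. Shared signal among these genes was not tested.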

How the data were processed

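Total RNA of 17 samples was hybridised to 1-colour Agilent arrays of design 026655. Per the file headers, the scans were quantified by Agilent Feature Extraction 10.7.3.1 (protocol GE1_107_Sep09), software also named in the submitters' processing notes, and the deposited intensity is its processed signal, corrected for background and not scaled between arrays. The deposited series table equals that intensity (largest relative difference 0).

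Control spots and outlier spots were left out, log2 of the intensity was taken and the 75th percentile over the 43020 non-control spots of each array was subtracted. Spots of a probe were averaged. Of 39429 probes, 132 lacked a usable spot on some array and were dropped, and 19769 were kept for passing the scanner's background test throughout 1 or more groups. RefSeq (GRCm38.p6) named 27508 probes by accession, and 11921 kept the name in the file. The brightest probe stood for a gene, which gave 15254 genes.

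Groups were compared with limma 3.58.1 (lmFit, eBayes; R 4.3.3, data.table version 1.17.8) in 1 model of the 5 groups over 17 arrays, with 12 residual degrees of freedom, and Benjamini-Hochberg adjustment ran over all genes. The script was tested on simulated data. A probe dim on every array of 1 group gives a bound, "at least N-fold": the bright group's mean over a floor for the dim group, set on each dim array at its lowest signal passing the background test or at the probe's own signal if higher. The number of arrays limits the precision.

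Arrays came from 6 slides, 3 of which held both groups. The rule for naming took Rela, anchor genes of the lists, every called member of a list, and the 20 largest rises and 20 largest falls of called genes without overlap, counting ordinary symbols (11396 genes). The 27 pathway lists, 12 marker lists and their members were chosen with earlier results of these data known. Aif1, C1s1, Cstdc4, Csta2, Gzmb, Siglech, Tyrobp and the other genes named for their neighbours, for an unadjusted p or for being called against all groups were chosen after their values were seen. Alternatives were quantile normalization, no scaling, normexp (offset 50), other filters, the mean of a gene's probes, the 7 arrays alone, slide as a fixed or random block, a block for the round of title numbers, and leaving out each array. The levels of some marker genes are not reported here.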

Additional observations from a re-analysis of the deposited data

Results flagged for a closer look

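In groups of 4 arrays, 146 sets of values of named genes were examined for 1 array far from the rest, and 4 were found. Chance alone gives about 1 in 20. With WT, replicate 3 was the distant array for 3 genes. Myc was at 2.56 there, against 2.92 on the nearest other WT array. Ttc25 was at -4.35, against -6.53, and was the WT array closest to the 362-549 levels. Hpn was at -1.35, against -0.999 on the nearest. With D361E, replicate 1 had Igtp at 0.252, against 0.376 on the nearest array. Groups of 3 arrays, 362-549 among them, were too small for this comparison.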

How the results depend on the processing

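None of the 49 called named genes turned sign under any setting. For 362-549 against WT (109 called), the count was 112 with quantile normalization, 97 without the filter on dim probes, 105 with a filter on these 2 groups, 103 with the mean of a gene's probes and 104 with slide as a random block. It was 28 with normexp, 51 with probes well above background on all arrays, 63 with the 7 arrays alone (58 shared) and 65 with the slide block. The all-array filter left 13660 genes tested, and fewer residual degrees of freedom remain with 7 arrays or a block. What lowered these counts was not tested. Leaving out 1 array gave 78 to 111. The round of title numbers as a block gave 194, with 108 of the 109 among them; same-round pairs of deviations correlated at 0.03 to 0.60, so the numbers were not taken to pair the arrays. Without scaling 146 were called, 21.2% of them higher against 36.7%, and the median of all genes was -0.36 instead of 0.05; the shares higher were 25.0% with normexp, 23.5% with the all-array filter and 47.6% with 7 arrays. Against 1-361 (96), normexp gave 13, the slide block 35, and no scaling 66 with 21.2% higher. Against D361E (196), normexp gave 40 (15.0% higher, against 32.1%), the slide block 55 and no scaling 145 (19.3% higher). Against 1-361+362-549 (2223, 61.2% higher), normexp gave 412, the slide block 269, quantile normalization 1871 (51.6% higher) and no scaling 5461 (5.77% higher). Calls gained among named genes were Ccl3 with quantile normalization, Ccl3 and Nfkbie without scaling, Tnf, Ccl3, Il4 and Hba-a1 with the round block, Hba-a1 without 362-549 replicate 1 or WT replicate 3, and Nfkbie without 362-549 replicate 3. Of the 49 called named genes 30 kept the call without each array, 33 with the slide block and 12 with normexp. Those that lost it with normexp include Ltb, Il6, Traf1 and Cma1, which were well above background on every array of both groups. The reason for these losses was not tested.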
